A study of Mus musculus with 15 samples.

Results

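The immediate early genes examined here are 10 genes, Fos, Fosb, Jun, Junb, Jund, Egr1, Ier2, Ier3, Zfp36 and Dusp1, chosen by name from the 13938 genes of the deposited expression table. All 10 were found there, each once. On build mm10 Fos lies at chr12:85473890-85477273 and Jun at chr4:95049034-95052222. Fosb (chr7:19302696-19310051) and Zfp36 (chr7:28376784-28380253) share a chromosome, as do Ier3 (chr17:35821684-35822923) and Dusp1 (chr17:26505590-26508519). Junb (chr8:84974484-84978718), Jund (chr8:70698949-70700616) and Ier2 (chr8:84661331-84662852) lie on chromosome 8, and Egr1 lies at chr18:34859823-34864984. Immediate early genes are transcribed within minutes of a stimulus, from transcription factors already present in the cell, such as serum response factor (SRF) and CREB, that are switched on by kinases including the MAP kinases. Most of their messages are short-lived and soon degraded, so their level in a tissue is a snapshot. In the liver they are known to respond to partial hepatectomy and other injury, to growth factors, and to the handling of tissue before RNA is fixed.

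The study induced hepatocellular carcinoma (HCC) in C57BL/6J mice and sequenced messenger RNA of liver, tumour nodules and thymus. Normal mice received corn oil by intraperitoneal injection. Model mice received diethylnitrosamine (DEN), an alkylating carcinogen, and carbon tetrachloride (CCl4), a liver toxin, by the same route. The 15 libraries fall into 5 groups of 3, which are normal livers, big nodules, small nodules, normal thymi and model thymi. From each of the model mice 8, 15 and 25 came 1 nodule of either size and the thymus. Normal mice 2, 3 and 5 gave the thymi, and the livers are numbered 2, 3 and 5 in the table, although the sample titles give mouse 3 for a pair of them. The livers may thus come from fewer animals than samples, in which case their SD understates the spread between animals and p-values against livers are too small. Sex, age, the doses and the time from injection to harvest are not given in the labels, and in these groups tumour growth and carcinogen treatment cannot be told apart.

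Values were FPKM, which count fragments per kilobase of transcript, scaled for sequencing depth, so levels can be compared between genes per length. Summed over the table they came to 364160 to 377984 (livers), 331746 to 338793 (nodules) and 225669 to 257205 (thymi). Read numbers are unknown, and counting error is therefore not given. Groups follow the sample titles, because the tissue labels of the thymi say liver or nodule. The summed level of 6 thymocyte markers (Cd3e, Cd4, Cd8a, Rag1, Ptcra and Dntt) was 1650 to 1870 FPKM in thymi but 3.39 to 14.3 FPKM in the liver and tumour samples. That of 6 hepatocyte markers was 19300 to 44100 FPKM in the latter and 131 to 191 in thymi. The big nodule of mouse 25 had 2.88% of its FPKM in mitochondrial genes, where all other liver and tumour samples had 6.93% to 11.1%.

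Promoter sequences of RefSeq (build GRCm38.p6) were available for 8 of the 10 genes; those of Ier2 and Egr1 were not analysed here. Stretches upstream of the RefSeq start site are shown for Fos, the gene with the largest fall in nodules, for Ier3, the gene that rose, for Dusp1, whose gene and transcript values differ below, and for Zfp36, which held the CArG box. Capitals mark matches to the motifs searched, other than GC boxes. The Fos stretch is chr12:85473740-85473869 on the plus strand, with the CRE core TGACG at 2 places and the TATA box TATAAA. The Dusp1 stretch is chr17:26508493-26508622 on the minus strand, with the full CRE TGACGTCA. The Ier3 stretch is chr17:35821563-35821692 on the plus strand, with an NF-kB site. The Zfp36 stretch is chr7:28379267-28379296 on the minus strand, and it lies in the first exon of the longer Zfp36 transcript of the annotation. It holds the CArG box, the sequence bound by SRF.
Fos: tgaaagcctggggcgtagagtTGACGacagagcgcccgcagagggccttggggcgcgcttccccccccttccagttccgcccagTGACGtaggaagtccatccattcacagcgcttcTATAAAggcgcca
Dusp1: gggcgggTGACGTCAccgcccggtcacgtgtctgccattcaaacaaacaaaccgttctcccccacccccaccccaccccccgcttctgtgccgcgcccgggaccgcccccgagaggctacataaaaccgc
Ier3: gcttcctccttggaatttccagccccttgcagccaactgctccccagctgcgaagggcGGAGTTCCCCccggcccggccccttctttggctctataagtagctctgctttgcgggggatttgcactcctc
Zfp36: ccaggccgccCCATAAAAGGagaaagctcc

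In the 250 bases upstream of the start site, both strands searched, the CRE core TGACG was found in 4 of the 8 promoters (Fos, Fosb, Junb and Dusp1), against 25.6% of the 10740 genes with a promoter. The full CRE, which contains that core, was found in Dusp1 alone, against 2.56% of all promoters. NF-kB sites were found in Fos, Fosb and Ier3, against 8.67%. A CArG box was found in Zfp36 alone, against 1.16%, and the EGR site GCGNGGGCG in Fosb and Zfp36, against 8.53%. Bases farther upstream and the promoters of Ier2 and Egr1 were not searched. A motif not found in these windows may therefore still be present in the gene's control region. The AP-1 site TGANTCA was found in 0 of the 8, against 4.72%, and TATAAA in Fos, against 7.36%. The GC box GGGCGG, which can overlap the EGR site, was found in 6 of the 8, against 56.2%. The gene start of Jund in the deposited table lies downstream of its RefSeq start, so its window may not be the region next to the transcript counted.

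The genes were also alike in structure. All 10 had 4 exons or fewer in the main transcript, as did 23.5% of 12885 other genes, and Jun, Junb, Jund and Ier2 had 1 exon. Their median span on the genome was 3059.5 bases, against 20287 in other genes. The AU-rich heptamer TATTTAT, of the kind bound by the protein that Zfp36 encodes, stood in the 3' untranslated region of 7 of the 10, against 27.4% of 12628 genes, and was not found in that of Junb, Egr1 or Ier2.

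Nodules were first compared with normal livers, the comparison that asks how the transcripts of the tumour differ from those of liver. Fos, Egr1, Ier2, Jun and Zfp36 were lower in nodules, by 1.13 to 3.07 on the log2(FPKM + 1) scale, and in each of these 5 genes all 6 nodules lay below all 3 livers. Ier3 was higher, with all nodules above all livers. It was below 1 FPKM in livers 2 and 3, so it passed the filter only through the nodules. With no filter its difference was also 2.53 (limma adjusted p = 0.00153). Junb, Jund and Dusp1 did not pass the test, and Fosb was under the filter of 1 FPKM in 3 libraries. In all, 5 of the 9 genes tested were called lower and 1 higher at an adjusted p under 0.05 in limma, and 40.5% of the 10669 genes tested were called, 13.1% lower and 27.4% higher. The median difference of the 9 genes was -1.13, that of all genes tested 0.13. Separation of all nodules from all livers was also seen in 39.7% of all genes, below the livers in 12.3% and above them in 27.4%. These are bulk samples, in which fewer cells of a type and less RNA per cell cannot be told apart.

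**Figure D1:**
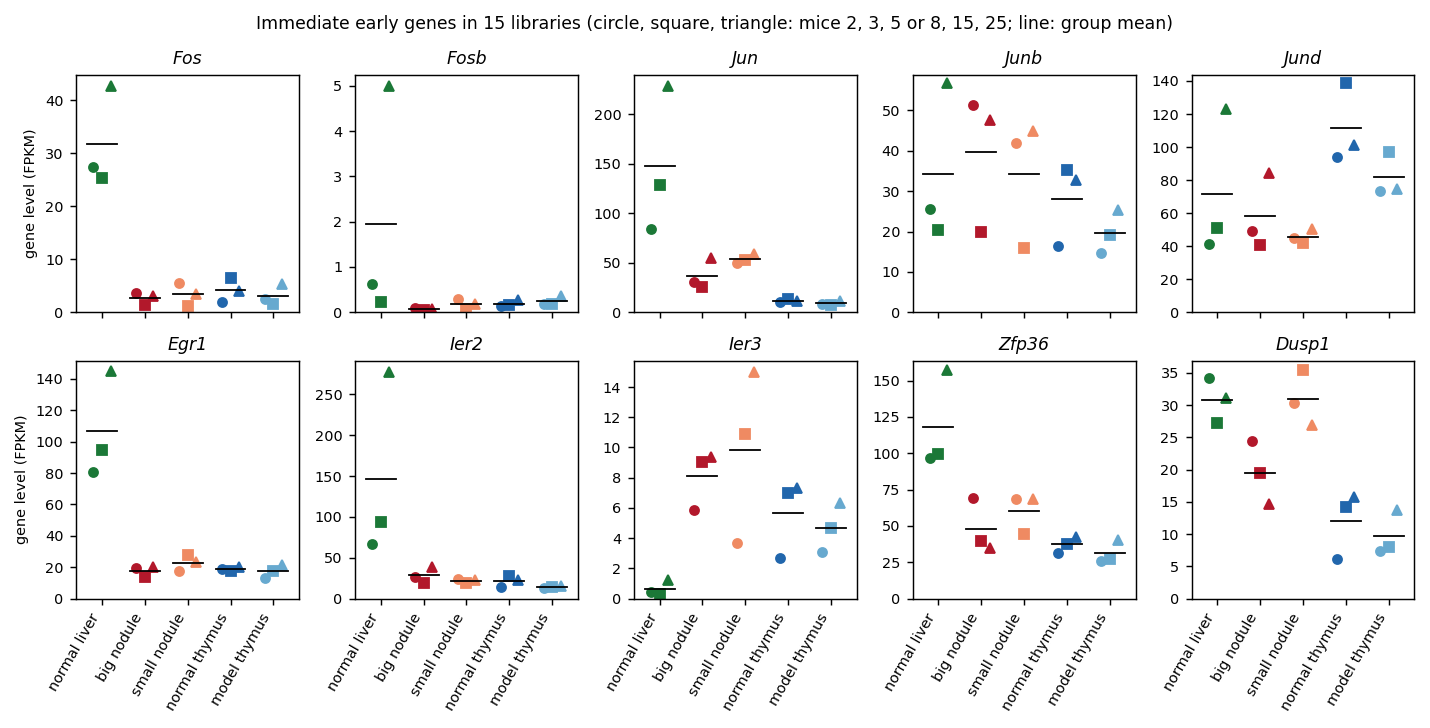
Level in FPKM of the 10 genes in each of the 15 libraries, with a linear axis from 0 for each gene, symbols for mice and a line at the group mean. Fos, Jun, Egr1, Ier2 and Zfp36 are highest in the 3 livers, Ier3 is lowest there, and the liver numbered 5 (triangle) is the highest liver in 9 of the 10 genes.

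Among the FOS proteins, which pair with JUN proteins to form the transcription factor AP-1, Fos was measured at 27.4, 25.3 and 42.8 FPKM in livers 2, 3 and 5. In nodules it ran from 1.22 to 5.58 FPKM with a median of 3.26, and the 2 lowest values were those of mouse 15. The gap between the lowest liver and the highest nodule was thus wider than the spread within either group. The mean was 31.8 ± 9.57 FPKM over 3 liver samples and, per mouse, 3.08 ± 1.67 in nodules (SD, n = 3). The log2 difference was -3.07 (SE 0.329, limma adjusted p = 0.000271). Fosb, a second FOS protein, was measured at 0.629, 0.233 and 5.00 FPKM in livers, at 0.0599 to 0.292 in nodules and at 0.142 to 0.360 in thymi. It stood above 1 FPKM in the liver numbered 5 only, so it was not tested.

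Of the JUN proteins, Jun was measured at 84.2, 129 and 229 FPKM in livers and from 25.5 to 59.3 in nodules, with a median of 51.6. Livers and nodules did not overlap, although the livers differed among themselves by a factor of 2.72. The log2 difference was -1.62 (SE 0.342, limma adjusted p = 0.00692). Junb, which is often a weaker activator than Jun, was measured at 25.7, 20.4 and 56.8 FPKM in livers and at 51.3, 41.9, 19.9, 16.0, 47.7 and 44.9 in the big and small nodules of mice 8, 15 and 25 in turn. Here the groups overlapped, and the nodules of mouse 15 stood below those of mice 8 and 25. The difference of 0.12 had a 95% interval from -0.93 to 1.17 (adjusted p = 0.86), wide enough to hold changes in either direction. Jund, the member of the family that is usually expressed without a stimulus, was measured at 41.4, 51.0 and 123 FPKM in livers and from 40.9 to 84.6 in nodules. Its difference of -0.34 (95% interval -1.22 to 0.54, adjusted p = 0.511) turned to 0.13 without the liver numbered 5. Junb overlaps Prdx2, a peroxiredoxin gene on the other strand, by 351 bases, and Jun, Jund and Zfp36 overlap annotated antisense transcripts. The library kit kept the strand, but the strand setting of the counting is not given in the sources used here, so reads of such partners may not have been told apart.

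Egr1, a zinc finger transcription factor, was measured at 80.7, 95 and 145 FPKM in livers and from 13.5 to 27.5 in nodules, with a median of 19.5. The lowest liver stood well above the highest nodule. The means were 107 ± 34.0 and 20.2 ± 1.56 FPKM (SD, n = 3), and the log2 difference of -2.33 (SE 0.211) had the smallest adjusted p of the 9 genes in limma, 0.000125.

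Ier2, a nuclear protein of the immediate early response, was measured at 67.1, 94.3 and 278 FPKM in livers and from 19.1 to 39.2 in nodules. The livers spanned a factor of 4.14, and the nodules still lay below the lowest of them. The log2 difference was -2.27 (SE 0.465, limma adjusted p = 0.00604). Ier3, a gene induced by stress and NF-kB that acts on cell survival, was measured at 0.465, 0.272 and 1.21 FPKM in livers and at 5.85, 3.67, 9.07, 10.9, 9.34 and 15.0 in the big and small nodules of mice 8, 15 and 25. Every nodule was above every liver, and the liver numbered 5, in which most of the other genes were highest, was the highest liver here too. The means were 0.649 ± 0.495 and 8.97 ± 3.8 FPKM (SD, n = 3), with a log2 difference of 2.53 (SE 0.325, limma adjusted p = 0.000641).

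Zfp36 encodes tristetraprolin, which binds AU-rich elements and sends messages, immediate early ones among them, to decay. It was measured at 96.9, 99.4 and 157 FPKM in livers and from 34.5 to 69.3 in nodules, with no overlap. The log2 difference was -1.13 (SE 0.241, limma adjusted p = 0.00732). The deposited transcript table lists a second, single-exon transcript of Zfp36 that spans its intron, which took 25.1%, 7.56% and 16.4% of the gene's fragments in livers 2, 3 and 5 and 11.3% to 20.5% in nodules. These shares overlapped. The spliced transcript alone was lower in nodules by 1.09 on the log2 scale (SE 0.265, adjusted p = 0.0373 over 16969 transcripts).

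Dusp1 encodes a nuclear phosphatase that switches off MAP kinases. As a gene it was measured at 34.2, 27.2 and 31.1 FPKM in livers and at 24.5, 30.3, 19.5, 35.4, 14.6 and 26.9 in the big and small nodules of mice 8, 15 and 25, and the groups overlapped. The difference of -0.33 did not pass (95% interval -0.69 to 0.032, limma adjusted p = 0.13). Its direction depended on the feature counted. The coding transcript listed for Dusp1 was measured at 15.6, 6.79 and 9.36 FPKM in livers and at 27.4, 33.9, 21, 33.9, 16.4 and 29.2 in the same nodules. By this measure every nodule was above every liver, though narrowly, with 15.6 in liver 2 and 16.4 in the big nodule of mouse 25. The share of all transcripts so separated was not computed. The difference was 1.3 (SE 0.297, limma adjusted p = 0.0313), where 18.3% of 16969 transcripts were called. The gene value was 2.20 to 4.01 times that of the transcript in livers, 2.01 to 3.02 times in normal thymi, 0.853 to 3.88 times in model thymi and 0.890 to 1.05 times in nodules. For Junb, which also has 1 listed transcript, this ratio was 0.786 in every group. A ratio that varies between libraries means that the gene value of Dusp1 held signal beyond the listed transcript. By annotated exon lengths, from another version of this gene, that transcript made up 15.0% to 27.3% of the gene's signal in livers. In nodules it made up 57.5% to 67.6%. The origin of the rest is not known, so it could not be placed. The fit on transcripts was added after the gene values had been seen.

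**Figure D2:**
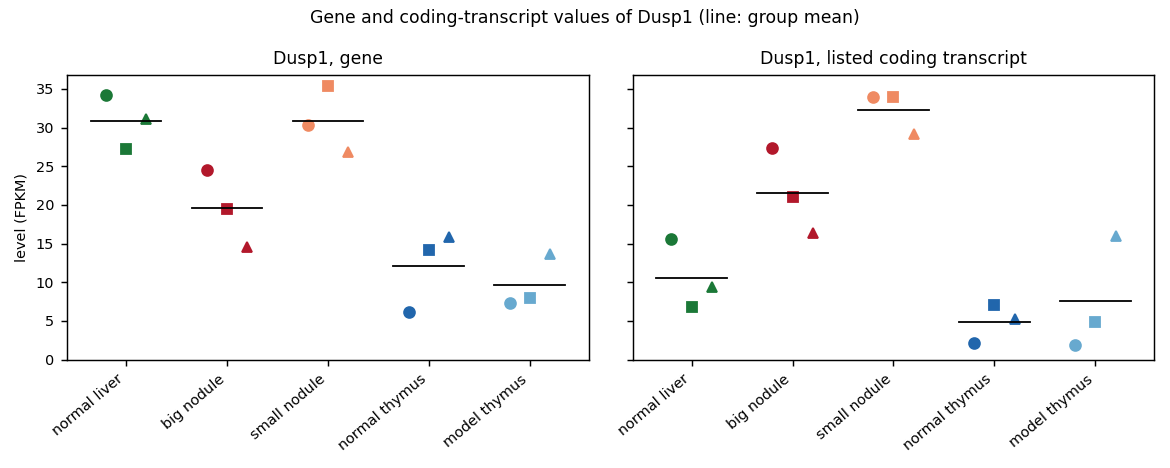
Dusp1 in the 15 libraries, as the gene value (left) and as the value of its listed coding transcript (right), in FPKM on the same axis, with a line at the group mean. The livers lie between 27.2 and 34.2 FPKM by gene and between 6.79 and 15.6 by transcript, while the nodules keep nearly the same level in both.

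Leaving out any single liver or mouse kept the 6 calls between nodules and livers, with adjusted p up to 0.0283. The share of higher calls among all calls was 67.6%, 78.7% with all libraries scaled to the same FPKM sum and 48.9% with median-of-ratios scaling, and the median of all genes moved between -0.045 and 0.24 over the scalings. The 6 calls held under each scaling.

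The thymi were compared to ask whether the tumour-bearing state was seen in an organ away from it. No immediate early gene was called in limma, and 0% of the 11332 genes tested were. At an unadjusted p under 0.05 there were 1159 genes (10.2%), with Jund and Ier2 among them. Jund was measured at 93.8, 139 and 101 FPKM in normal and at 73.4, 96.8 and 74.9 in model thymi, and the highest model thymus lay above the lowest normal one. Its difference was -0.43 (SE 0.180, limma adjusted p = 0.481). Ier2 was measured at 14.1, 27.8 and 22.9 FPKM in normal and at 12.5, 14.2 and 15.5 in model thymi, again with overlap through normal thymus 2. Its difference was -0.54 (SE 0.229, limma adjusted p = 0.484).

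All 9 genes tested had differences below 0 in the thymus, from -0.13 for Egr1 to -0.54 for Ier2, as had 42.6% of all genes. None was without overlap, against 18.8% of all genes. Fos was measured at 2.02, 6.45 and 4.10 FPKM in normal and at 2.45, 1.49 and 5.37 in model thymi, and its 95% interval from -1.3 to 0.59 held changes in both directions. Egr1 ran from 17.3 to 20.3 FPKM in normal and from 13.2 to 21.4 in model thymi (95% interval -0.53 to 0.27). The signs of Egr1 and Ier3 turned when a library was left out, which was model thymus 8 for either gene and also normal thymus 5 for Ier3.

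**Figure D3:**
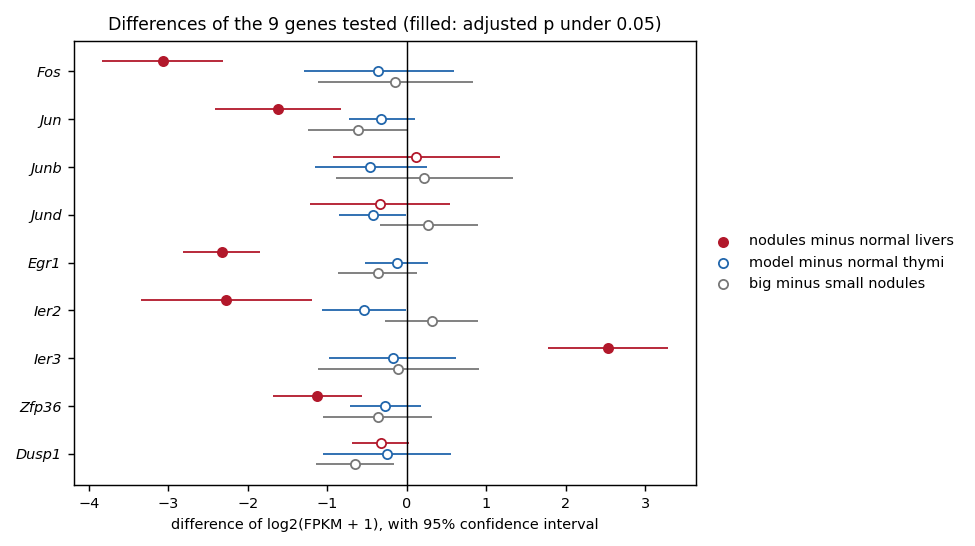
Differences of log2(FPKM + 1) for the 9 genes tested, with 95% confidence intervals, for nodules minus livers, model minus normal thymi and big minus small nodules. Filled points have an adjusted p under 0.05 in limma and occur in the comparison of nodules with livers, where Fos (-3.07) and Ier3 (2.53) lie farthest from 0.

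Whether the change from normal to model differed between the organs was tested as an interaction. The change in liver lay below that in thymus for Egr1 by 2.20 (SE 0.291, limma adjusted p = 0.000182), for Fos by 2.71 (SE 0.583, adjusted p = 0.00534) and for Jun by 1.3 (SE 0.424, adjusted p = 0.0452). For Ier3 it lay above, by 2.71 (SE 0.525, adjusted p = 0.00273). Of 12683 genes, 22.2% were called, 7.62% lower and 14.6% higher. Ier2 (-1.73, adjusted p = 0.0511) and Zfp36 (-0.86, adjusted p = 0.0899) did not pass, and with mouse as a block Ier2 did (adjusted p = 0.0396), as did both with median-of-ratios scaling (0.029 and 0.0452). The call for Jun was lost on leaving out any of normal livers 3 and 5, normal thymi 2 and 5, model thymi 8, 15 and 25 and the nodules of mouse 8 or 15, with an adjusted p up to 0.108, and with equal FPKM sums (0.0674) or quantile normalization (0.0988).

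Big and small nodules of the same mice were compared by size. No immediate early gene was called, and 0% of 10415 genes were, in limma with or without mouse as a block. An unadjusted p under 0.05 was found for 417 genes (4%), among them Dusp1 (-0.65, SE 0.209, limma adjusted p = 0.949). Dusp1 was measured at 24.5, 19.5 and 14.6 FPKM in the big and at 30.3, 35.4 and 26.9 in the small nodules of mice 8, 15 and 25. The big nodule was lower in each mouse and the groups did not overlap, as in 6.0% of all genes in that direction and 9.16% in either. Jun was measured at 30.8, 25.5 and 54.5 FPKM in big and at 50, 53.2 and 59.3 in small nodules, lower in the big nodule of each mouse, with overlap between the groups (95% interval of the difference -1.24 to 0.017). Junb was higher in the big nodule of each mouse, by 0.086 to 0.30, which is small beside the distance of mouse 15 from the others. The remaining genes differed in sign between mice, apart from Fosb, which was below 0.3 FPKM in all nodules.

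Normal liver and normal thymus set the genes apart by organ. Jun, Fos, Ier2, Egr1, Zfp36 and Dusp1 were higher in liver, by 3.44, 2.72, 2.48, 2.40, 1.61 and 1.38 on the log2(FPKM + 1) scale, and Ier3 was lower, by -1.96 (limma adjusted p up to 0.00888 on leaving out a library). For these 7 genes no liver overlapped with a normal thymus, as was so for 85.2% of all genes. Of 11763 genes, 84.7% were called, 22.8% higher in liver and 61.8% lower, with a median of -0.86, so that a call alone says little in this comparison. The median of the 9 genes was 1.61. Junb (0.21) and Jund (-0.77) were not called, and their values depended on the scaling. Junb was 1.16 (adjusted p = 0.025) with median-of-ratios scaling and -0.40 with equal FPKM sums. Jund was 0.20 and -1.40 (adjusted p = 0.00565) in the same order, and -1.24 (adjusted p = 0.00107) without the liver numbered 5. The coding transcript of Dusp1 differed by 1.04, with an adjusted p of 0.0837, where 66% of transcripts were called. This comparison and that of nodules with livers share the 3 normal livers.

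Per length, the order of levels within normal livers ran from Jun (147.5 ± 74.4 FPKM), Ier2 (146 ± 114.5), Zfp36 (118 ± 34.1) and Egr1 (107 ± 34.0) through Jund (72.0 ± 44.9), Junb (34.3 ± 19.7), Fos (31.8 ± 9.57) and Dusp1 (30.9 ± 3.52) to Fosb (1.95 ± 2.65) and Ier3 (0.649 ± 0.495), as mean ± SD of 3. Neighbours in this order differed by less than the larger SD of the pair, apart from Dusp1 and Fosb. In normal thymi Jund came first (111 ± 24.1), ahead of Zfp36 (37.3 ± 5.56), Junb (28.2 ± 10.3), Ier2 (21.6 ± 6.95) and Egr1 (18.9 ± 1.52). Zfp36, Junb and Ier2 each differed from the next by less than the larger SD of the pair. Jun was at 11.6 ± 1.91 FPKM there, Dusp1 at 12 ± 5.16, Ier3 at 5.65 ± 2.59, Fos at 4.19 ± 2.22 and Fosb at 0.192 ± 0.0671. In model thymi Jund was again first (81.7 ± 13.1), ahead of Zfp36 (31.2 ± 8.18), Junb (19.7 ± 5.45) and Egr1 (17.4 ± 4.10), and Fos (3.10 ± 2.02) and Fosb (0.242 ± 0.102) were last.

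In nodules, per mouse, Zfp36 (54.1 ± 13.5), Jund (52.0 ± 13.7), Jun (45.6 ± 9.85) and Junb (37.0 ± 16.5) came first, each within the larger SD of its neighbour. Dusp1 (25.2 ± 3.86), Ier2 (25.1 ± 5.84) and Egr1 (20.2 ± 1.56) followed, close together. Ier3 (8.97 ± 3.8) stood above Fos (3.08 ± 1.67) here, the reverse of their order in livers, and Fosb (0.13 ± 0.0653) was last.

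Some libraries stood at one end of their group in most of the genes. The liver numbered 5 was the highest of the livers in 9 of the 10 genes, with Dusp1 the exception, while it was highest in 42.6% of 8973 genes. Such shares here cover genes of at least 1 FPKM in every library of the group. That limit would leave out Fosb in each group and Ier3 in livers, which are counted among the 10. Normal thymus 2 was the lowest in 9 of 10, against 36.5% of 10466 genes, and model thymus 25 the highest in 9 of 10, against 32.6% of 10907. The big nodule of mouse 15 was the lowest big nodule in 7 of 10, against 31.6% of 9591 genes. The small nodule of mouse 15 was the lowest small nodule in 6 of 10, against 22.8% of 9735 genes. Model thymus 8 was the lowest model thymus in 7 of 10, against 38.2% of 10907. The highest values were more divided among small nodules, where mice 8, 15 and 25 were highest in 4, 2 and 4 genes. Fos lay above its group mean and Ier3 below it in both nodules of mouse 8, and the reverse held in both nodules of mouse 15. Among the transcripts of Fosb, Fosb-205 was listed at 1.91 FPKM in the liver numbered 5 and at 0 in the other 14 libraries.

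**Figure D4:**
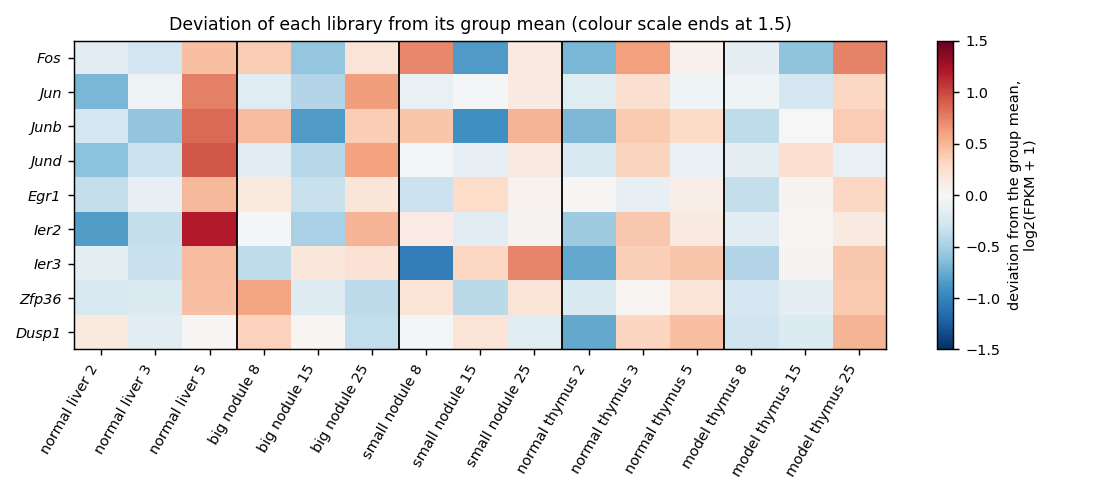
Deviation of log2(FPKM + 1) from the group mean for 9 genes (rows; Fosb, at under 1 FPKM in nearly all libraries, is left out) and 15 libraries (columns; vertical lines part the groups). The liver numbered 5 is above its group mean in all 9 rows, by up to 1.19 for Ier2, and normal thymus 2 is below it in all but Egr1.

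Genes outside the 10 whose deviations from the group means were most like the mean of theirs, over 15 libraries and among 9029 genes, were Cebpb (Pearson r = 0.895), Fbxo7 (0.875), Gdf15 (0.869), Tbc1d8 (0.867) and Ghdc (0.865). Cebpb encodes a liver bZIP factor that is itself an early response gene, and Gdf15 a secreted stress protein. Cebpb was measured at 66.8, 79.8 and 155 FPKM in livers and Gdf15 at 40.7, 59.1 and 141, so the liver numbered 5 was the highest in either. For Fos alone they were Smco4 (0.942), Fam96b (0.902), Zfp692 (0.85), Nostrin (0.844) and Parp12 (0.825). These are the highest of many coefficients over the same libraries and are given as a description.

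Related genes, listed with earlier results of these data known, did not all go the way of the 10. Of 40 other immediate early genes, 33 were tested in nodules against livers, 13 were higher and 5 lower, with a median of 0.56, where 27.4% of all genes tested were higher and 13.1% lower. Without the liver numbered 5, 16 were higher and 5 lower. With that liver left out, 24.7% of all genes were higher and 10.5% lower, the shares against which the counts without it below are read. The 4 with the smallest adjusted p in limma were higher, namely Hes1 by 1.56 (adjusted p = 4.47e-05), a repressor under Notch, Klf4 by 1.33 (7.58e-05), a Krüppel-like factor, Id1 by 2.62 (0.000344), an inhibitor of helix-loop-helix factors, and Ier5 by 1.24 (0.000344). Of the genes tested, Klf4, Ier5 and Tnfaip3 were below 1 FPKM in every liver. They passed the filter through the nodules alone, which all but fixed their direction. The 5 that were lower, named after their values were seen, were Nr4a1 (-2.84, adjusted p = 0.012), an orphan nuclear receptor, Cyr61 (-2.81, 0.000731), a matrix protein, Gadd45g (-1.98, 0.00628), Trib1 (-1.12, 0.00468) and Srf (-0.84, 0.012). Cyr61 was measured at 36.6, 47.6 and 110 FPKM in livers and from 5.73 to 10.6 in nodules, without overlap.

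**Figure D5:**
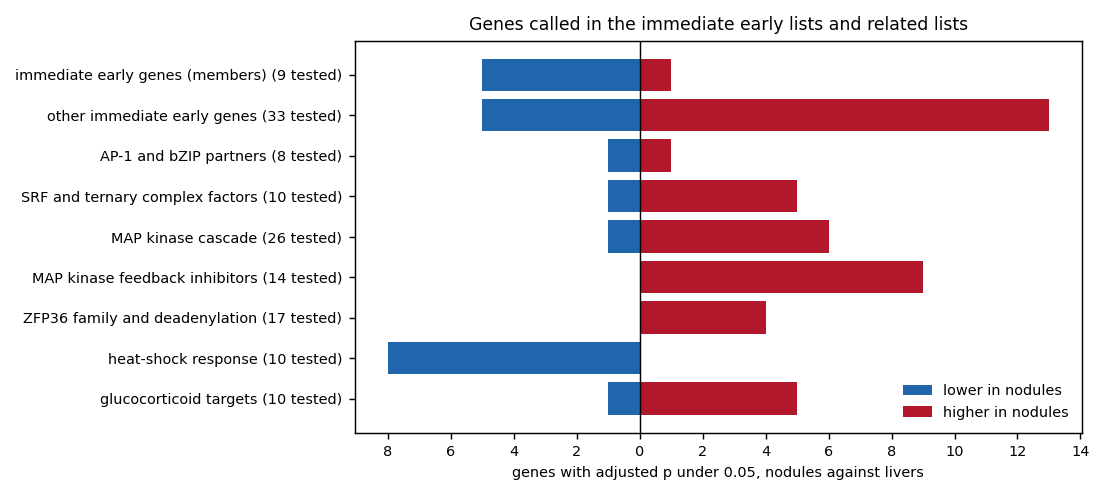
Number of genes in each list with an adjusted p under 0.05 in limma for nodules against livers, to the right when higher and to the left when lower in nodules, with the number tested beside the name. The 10 genes of this account have 5 lower and 1 higher, the other immediate early genes 5 lower and 13 higher, and the heat-shock list 8 lower and 0 higher.

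In a list of 10 genes for SRF and its partners, which also held Creb1, Crtc2, Nab1 and Nab2, 5 were higher and 1 lower (median 0.38). Nab2, which holds EGR proteins in check, was higher by 1.85 (adjusted p = 0.000848), Elk3 by 0.60 (0.00874) and Mkl1 by 0.38 (0.0217), while Srf itself was lower by the value above. Without the liver numbered 5 these counts were 3 higher and 2 lower, and Mkl1 was not called. Of 26 genes of the MAP kinase cascade, 6 were higher and 1 lower (median 0.11), no larger shares than the 27.4% and 13.1% of all genes. Among them were Rps6ka1 (1.23, adjusted p = 0.000354), which encodes the kinase RSK1, Mapk3 (0.99, 0.000605), which encodes ERK1, and the adaptor Shc1 (0.57, 0.00934). Without the liver numbered 5, 5 were higher and 1 lower. The one that was lower was Map2k3 (-0.78, 0.00149), an activator of p38. Of 8 AP-1 and bZIP partners tested, Crem was lower (-0.94, 0.00216) and Atf7 higher (0.55, 0.0171), with a median of -0.074. Without the liver numbered 5 there were 2 lower, Crem and Creb1, and 0 higher.

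Feedback inhibitors of the MAP kinases, other than Dusp1, were higher in 9 of 14 tested and lower in 0 (median 0.53). Among those tested, Dusp4, Dusp5, Dusp7 and Spry2 were below 1 FPKM in every liver. They passed the filter through the nodules alone, which all but fixed their direction. The summed level of the list was not higher, at 496 to 526 FPKM in livers and 414 to 530 in nodules. Errfi1 alone was at 402 to 420 FPKM in livers and 281 to 412 in nodules. Dusp4 was measured at 0.417, 0.493 and 0.610 FPKM in livers and from 3.56 to 10.6 in nodules, with no overlap and a log2 difference of 2.40 (adjusted p = 0.000146). Dusp5, another nuclear phosphatase, was measured at 0.301, 0.123 and 0.658 FPKM in livers and from 3.94 to 15.5 in nodules (2.81, adjusted p = 0.000183). Spred2 was higher by 1.38 (0.000496) and Dusp7 by 1.17 (0.000725). Of 17 genes of the ZFP36 family and of deadenylation, 4 were higher and 0 lower (median 0.19), again no larger a share than the 27.4% of all genes that were higher. These were Zfp36l2 by 1.44 (adjusted p = 0.000601), a relative of Zfp36, Pabpc1 by 0.58 (0.011), Cnot7 by 0.49 (0.0108) and Cnot6l by 0.40 (0.0422), the last of which was not called without the liver numbered 5.

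Lists that respond to stress were read beside these. Of 10 heat-shock genes, 8 were lower in nodules and 0 higher (median -1.36), with Hspb1 at -1.78 (adjusted p = 0.000252), Bag3 at -1.54 (0.00578), Dnajb1 at -1.03 (0.0148) and Hspd1 at -0.50 (0.00949). The summed level of the list ran from 865 to 1230 FPKM in livers and from 552 to 811 in nodules. Hspa1b, an inducible HSP70 gene named after its values were seen, was at 53.4, 76.6 and 11 FPKM in livers, lowest in the liver numbered 5, in which the immediate early genes were highest. Of 10 glucocorticoid targets, 5 were higher and 1 lower (median 1.24), where 27.4% of all genes were higher and 13.1% lower. The higher ones were led by Fkbp5 (2.34, limma adjusted p = 2.04e-05), the metallothionein genes Mt2 (4.18, 0.000161) and Mt1 (2.5, 0.000642), and Cdkn1a (1.66, 0.0057). Without the liver numbered 5 the counts were 5 higher and 0 lower. The part of these responses in the lower immediate early genes was not tested. In thymus and between nodule sizes, 0 genes of any of these lists were called in limma. As 0% of all genes were called there, this does not show that a change was confined to nodules. The median of the heat-shock list was -0.80 in model against normal thymi and -0.19 in the interaction.

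In the interaction, 12 of 36 other immediate early genes were called higher in the change in liver than in thymus and 3 lower (median 0.27), and of the feedback inhibitors 6 of 15 were higher and 0 lower (median 0.60), beside 14.6% higher and 7.62% lower over all genes. Klf10 (2.62, adjusted p = 0.000387), Dusp5 (3.16, 4.15e-05) and Dusp4 (2.21, 0.000158) were among them. The heat-shock list had 1 gene called, Bag3 (-1.24, 0.04), and the glucocorticoid list 4, all higher.

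Markers of other cells also differed between nodules and livers. Their counts stand beside 27.4% higher and 13.1% lower over all genes. Of 8 macrophage and Kupffer cell genes, 5 were higher and 0 lower, and their summed level was 94.7 to 123 FPKM in livers and 128 to 210 in nodules. Of 6 endothelial genes, 4 were higher and 0 lower (29.4 to 33.6 FPKM in livers, 57.4 to 84.3 in nodules), and of 6 stellate cell and fibroblast genes 3 were higher and 1 lower (37.7 to 44.9 and 35.3 to 60.3). All 3 neutrophil genes tested, of 6 listed, were higher (1.06 to 1.92 and 4.10 to 15.2 FPKM). These 3, S100a8, S100a9 and Csf3r, were below 1 FPKM in every liver. They passed the filter through the nodules alone, so their count says nothing on direction. Without the liver numbered 5, 4 macrophage, 4 endothelial, 3 stellate cell and 2 neutrophil genes were higher and 0 of these lists were lower. Of 6 hepatocyte genes, 3 were higher, Alb, Apoa1 and Serpina1a, and 2 lower, Tat and Cps1, and without the liver numbered 5 the counts were 3 and 0. No macrophage, endothelial, stellate or hepatocyte marker was at 0 in a liver or nodule. The part of these cells in the levels of the immediate early genes was not tested.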

How the data were processed

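Polyadenylated RNA of 15 samples was sequenced from strand-specific libraries on an Illumina instrument, per the labels' protocols. The authors deposited gene and transcript values in FPKM, per the file headers. FastQC 0.11.7, cutadapt, HISAT2 2.1.0, StringTie 1.3.3 and build mm10 are named in the submitters' processing notes, and the strand setting is not given in the sources used here. No counts were used, so depth is unknown and precision rests on 3 samples per group.

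Genes with at least 1 FPKM in at least 3 samples of a comparison were fitted as log2(FPKM + 1) with limma 3.58.1 in R 4.3.3 (eBayes with a trend). A gene below 1 FPKM in most livers could be compared with livers only if nodules expressed it, which favours higher calls. Tests were two-sided, and p-values were adjusted over all genes by the method of Benjamini and Hochberg with a threshold of 0.05. Fold changes on this scale understate changes of low genes. Nodules were averaged per mouse before the comparison with livers, because the animal is the replicate. The code was tested on simulated data. Structure came from GENCODE M21, which holds 87.7% of the versioned gene identifiers, and promoters from RefSeq.

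The members and lists were chosen with earlier results of these data known. Named genes are all members, up to 4 called genes per list by adjusted p, and the 5 genes most like the members; exceptions are marked. The titles pair the samples of model mice. Deviations from group means correlated at 0.307, 0.256 and 0.32 between nodules of a mouse and at -0.236 to -0.0457 between mice, and at 0.0251 to 0.07 between nodules and thymus of a mouse. Livers and normal thymi of the same number correlated at 0.106, -0.0181 and 0.0706, so no pairing is claimed there, and the block by number in that comparison rests on the table's numbers alone. Alternatives were other scalings, filters and pseudocounts, a block for mouse, the big or small nodules alone, leaving out each library and, after the data were seen, transcripts in place of genes and lists without the liver numbered 5.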

Additional observations from a re-analysis of the deposited data

Results flagged for a closer look

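A difference between organs under the same contrast, shown by the interaction test of limma, marks 4 genes. The change from normal to model tissue in liver minus that in thymus was -2.71 on the log2(FPKM + 1) scale for Fos (adjusted p = 0.00534), -2.20 for Egr1 (0.000182) and -1.30 for Jun (0.0452), and it was 2.71 for Ier3 (0.00273). In thymus the same genes had differences of -0.36, -0.13, -0.32 and -0.18, none past the threshold. The call for Jun did not hold when several single libraries were left out. Groups of 3 are too small for a search for outlying samples.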

How the results depend on the processing

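In nodules against livers, 5 genes were lower and 1 higher on leaving out each library or mouse. Under the other alternatives fitted on genes, 5 to 6 were lower and 1 higher. With transcripts in place of genes, that of Dusp1 was called higher (1.3, limma adjusted p = 0.0313) beside that of Ier3. Dusp1 became called with median-of-ratios scaling (-0.53) and for big nodules alone (-0.66). Over all genes and comparisons, 640 of 701 values of single genes kept direction and side of the threshold, 34 turned, 13 lost and 14 gained a call.

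With median-of-ratios scaling, 5 genes were lower in the interaction in place of 3. In normal liver against thymus, 1 gene was lower, 0 with a filter of 5 FPKM (Ier3 not tested), 2 with equal FPKM sums or quantile normalization, and 1 to 2 on leaving out a library (2 without liver 5). The causes of the other shifts were not tested. With the replicate block for mouse, 0 genes were called by size and 4 lower in the interaction (Ier2 at -1.72 added); it changed no other call.

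Signs turned on leaving out a library within these ranges. They were -0.17 to 0.56 for Junb and -0.65 to 0.13 for Jund in nodules against livers, -0.28 to 0.046 for Egr1 and -0.56 to 0.042 for Ier3 in thymus, and -0.57 to 0.21 for Fos, -0.24 to 0.65 for Junb, -0.026 to 0.49 for Jund and -0.63 to 0.26 for Ier3 by size. They were -0.21 to 0.56 for Jund and -0.31 to 0.30 for Dusp1 in the interaction, and -0.22 to 0.50 for Junb in liver against thymus. With median-of-ratios scaling Junb turned to -0.077 in nodules, Jund to -0.080 in the interaction and to 0.20 in liver against thymus. With equal FPKM sums Junb turned to -0.40 in liver against thymus, and Dusp1 to 0.011 in the interaction (0.049 with quantile normalization). With the transcript in place of the gene, Dusp1 turned to 1.3 in nodules, 0.30 in thymus and 1.00 in the interaction.

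Jun lost its interaction call with a pseudocount of 0.1 (-1.29, adjusted p = 0.0506), equal FPKM sums (-1.20, 0.0674) and quantile normalization (-0.94, 0.0988). Depth is unknown, so Fosb and other low genes have no counting error, and 3 samples per group leave wide intervals for Junb and Jund.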
